A study of Mus musculus with 17 samples.

Results

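Adult mouse spermatogonia that were low for Kit and high for a telomerase reporter were compared according to whether they carried GFRA1 at the cell surface. The comparison took the 8 libraries whose titles give this sort, 4 GFRA1-positive (GFRA1pos) and 4 GFRA1-negative (GFRA1neg), of 17 libraries in the series. Both groups came from testes of adult mice of genotype Tert-Tomato/+ on a B6/J X B6/N mixed background, and both were sorted as TERT-High and Kit-, so the GFRA1 gate alone separates them by label. The other 9 libraries are adult TERT-High Kit+ cells (KITpos, n = 5) and gonocytes positive for TERT and OCT4-GFP from day 6 mice (P6gonocyte, n = 4). The same genotype and strain are given for them, although that genotype does not name the OCT4-GFP of the gonocyte titles. These 9 libraries are used for the shared estimate of spread and for levels. A TERT-high gate follows the fluorescence of a Tomato reporter at the Tert locus, and GFRA1-negative cells are those without the surface protein at sorting. Labels do not say whether libraries of a group came from separate animals, so p-values measure the spread between these samples, which may be technical.

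GFRA1 is the co-receptor that binds GDNF, a factor from Sertoli and peritubular cells, and passes the signal to the receptor tyrosine kinase RET. GDNF signalling maintains undifferentiated spermatogonia, and the ETS factor gene Etv5 is among its known targets. Progenitor spermatogonia that are closer to differentiation lose GFRA1 and turn on Neurog3, a basic helix-loop-helix factor, and Rarg, the retinoic acid receptor through which they respond to retinoic acid. Kit, the receptor for stem cell factor, marks the differentiating spermatogonia that follow.

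Total counts per library ran from 10918223 to 11567191 in GFRA1pos and from 9965437 to 12641907 in GFRA1neg. Summed transcripts of 17 spermatid genes stood at 163.6, 2625.3, 525.4 and 1471.3 CPM in GFRA1pos and at 1036.3, 2788.6, 662.6 and 704.0 CPM in GFRA1neg, where CPM is the count scaled to TMM-adjusted library size. GFRA1pos replicates 2 and 4 and GFRA1neg replicate 2 were thus the highest in spermatid transcripts and stood apart from the other 5 libraries on the second principal component, which held 33.6% of the variance. The range of the spermatid sum overlapped between the groups. Spermatocyte markers summed to 832.6 to 1754.1 CPM in GFRA1pos and 1354.5 to 3174.3 in GFRA1neg, with 3 of 16 (Hormad1, Meiob and Mael) lower in GFRA1pos and 1 without GFRA1pos replicate 2 or GFRA1neg replicate 1 or 3, and the part of such cells in the results was not tested. Counts of genes are therefore also given without these 3 libraries, called below the spermatid-rich libraries, in a fit chosen after the data were seen. It keeps GFRA1pos replicates 1 and 3 and GFRA1neg replicates 1, 3 and 4. A call lost there can come from fewer libraries or from spermatid transcripts, and which was not tested. In bulk samples such as these, fewer cells of a type and less RNA per cell cannot be told apart.

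The 4 markers followed the labels, with Gfra1 and Etv5 high in GFRA1pos and Neurog3 and Rarg high in GFRA1neg. Gfra1, the sort gene, had 394, 385, 426 and 355 CPM in GFRA1pos and 18.6, 25.6, 21.7 and 25.4 CPM in GFRA1neg. Etv5 had 425, 414, 462 and 392 CPM in GFRA1pos and 26.3, 40.9, 32 and 34 CPM in GFRA1neg, and Neurog3 had 5.41, 3.42, 6.94 and 4.56 CPM in GFRA1pos and 37.5, 28.1, 46.9 and 44.6 CPM in GFRA1neg. Rarg had 6.48, 8.39, 12.2 and 7.18 CPM in GFRA1pos and 49.3, 31.3, 47.1 and 48.3 CPM in GFRA1neg. The lowest GFRA1pos library stood above the highest GFRA1neg library for Gfra1 and Etv5, and the order was turned for Neurog3 and Rarg. In edgeR's quasi-likelihood test Etv5 rose by 3.67 ± 0.33 (log2 fold change ± SE, as in every value of that form below), with adjusted p = 4.07e-07, while Neurog3 (-2.95 ± 0.39, adjusted p = 3.61e-05) and Rarg (-2.36 ± 0.23, adjusted p = 1.3e-06) fell. Kit, gated out of both groups, stood at 17.6 ± 3.8 CPM in GFRA1pos and 27.6 ± 14.7 in GFRA1neg (SD, n = 4) and did not pass (adjusted p = 0.117), with 49.3 CPM in GFRA1neg replicate 2 alone above 25. Tert, whose reporter set the gate, had 7.25 ± 3.6 CPM in GFRA1pos and 11.3 ± 3 in GFRA1neg (SD, n = 4), which also did not pass (adjusted p = 0.207). Without GFRA1pos replicate 1, at 12.3 CPM its highest library, Tert passed as lower in GFRA1pos (log2 fold change -1.02, adjusted p = 0.0383).

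Markers of differentiating spermatogonia, the stage that follows, moved in both directions. Of 11 tested, Stra8 and Ccnd2 rose and Sohlh1, Dnmt3b and Sycp3 fell. The mean of Ccnd2 in KITpos was 47.7 CPM, below the means of both groups, so its levels here do not mark that stage. Stra8 had a KITpos mean of 248.6 CPM, above both. The KITpos means of Sohlh1, Dnmt3b and Sycp3, at 64.15, 148.7 and 115.8 CPM, lay between those of the 2 groups. Ccnd2, which encodes cyclin D2, had 360.5, 306, 386 and 345 CPM in GFRA1pos and 64.4, 75.6, 85.4 and 71.4 CPM in GFRA1neg (log2 fold change 2.24 ± 0.17 SE, adjusted p = 1.01e-07). Stra8, a gene switched on by retinoic acid, had 24.2, 22.4, 19.5 and 27.4 CPM in GFRA1pos and 10.3, 11, 9.47 and 8.88 CPM in GFRA1neg (log2 fold change 1.24 ± 0.23 SE, adjusted p = 0.000981). Sohlh1, a helix-loop-helix factor of spermatogonia, went the other way, with 30.5, 25.5, 39.8 and 35.2 CPM in GFRA1pos and 65.9, 52.5, 80.9 and 79 CPM in GFRA1neg (log2 fold change -1.09 ± 0.24 SE, adjusted p = 0.00434). The libraries of the groups did not overlap in these 3 genes. Dnmt3b, a DNA methyltransferase, fell (-0.88 ± 0.16, adjusted p = 0.000984), and Sycp3, a component of the meiotic chromosome axis, fell (-1.67 ± 0.38, adjusted p = 0.00504) with overlapping libraries. The 11 markers summed to 730.6 to 912.6 CPM in GFRA1pos and 645.4 to 915.6 in GFRA1neg, which overlapped. That overlap rests on Ccnd2, which held 306 to 386 CPM of the sum in GFRA1pos and 64.4 to 85.4 in GFRA1neg. The part of such cells in the results was not tested. The 5 genes were named after their values were seen.

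Across 15451 tested genes, 2185 (14.1%) passed at an adjusted p under 0.05, 1128 (7.3%) as higher and 1057 (6.84%) as lower in GFRA1pos, with a median log2 fold change of -0.04 over all of them. Libraries of the 2 groups did not overlap in 3598 genes (23.3%). Without the spermatid-rich libraries 721 of 15951 genes (4.52%) were higher and 448 (2.81%) lower, and list counts from that fit are to be read beside those shares. Low counts were filtered anew in every fit with libraries left out. The tested members of a list there can differ from the numbers given, and list shares are not given for those fits. Leaving out any 1 library gave 839 to 1134 higher and 705 to 1039 lower genes, the lowest lower count coming without GFRA1pos replicate 2. Without GFRA1pos replicates 1 to 4 in turn, 896, 902, 839 and 1134 genes were higher and 744, 705, 750 and 754 lower. Without GFRA1neg replicates 1 to 4 in turn, 879, 946, 908 and 904 were higher and 764, 1039, 732 and 740 lower. Calls over all genes thus mostly fell, and list counts without 1 library are to be read beside these totals. In 34 lists of surface, secreted, metabolic and regulatory genes, 3200 of 4642 members were tested, which means they passed the filter on low counts. Of the tested members 351 were higher and 298 lower, 20.3% together. Called shares were 25.6% of 1099 regulatory genes, 19.7% of 943 surface genes, 19.0% of 490 secreted genes and 13.9% of 710 metabolic genes, the last close to the 14.1% of all genes. The shares in brackets after the counts of each list are to be read against 7.3% for higher and 6.84% for lower genes. Genes outside the rule for named genes are introduced below as chosen after their values were seen.

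**Figure D1:**
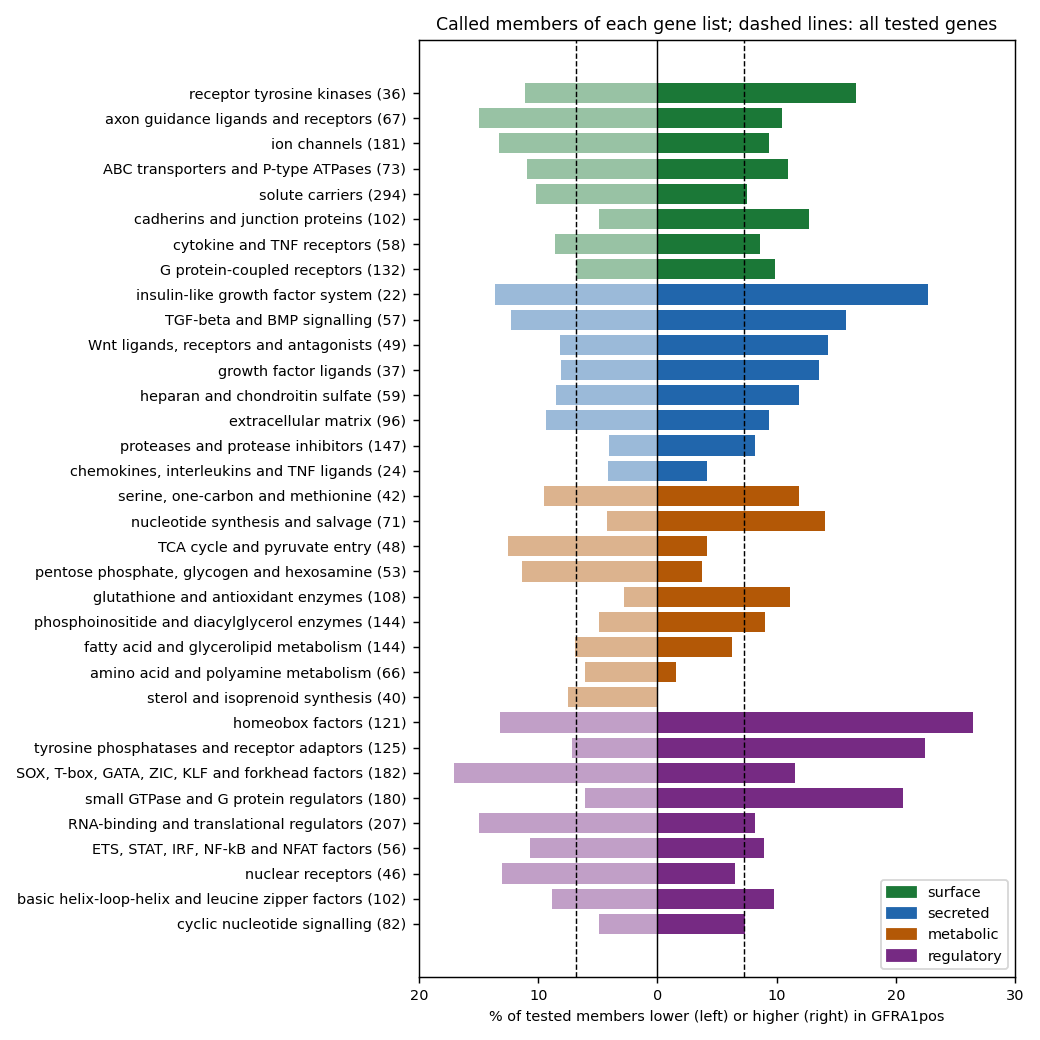
Share of the tested members of 34 gene lists (number tested in brackets) that were lower (pale, left) or higher (dark, right) in GFRA1pos, in percent, edgeR adjusted p under 0.05. Dashed lines mark the shares over all tested genes, 6.84% lower and 7.3% higher. Homeobox factors reached 26.4% higher, a share that includes near-identical Rhox copies.

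Among receptor tyrosine kinases, there were 6 of 36 tested members higher (16.7%) and 4 lower (11.1%), against 7.3% and 6.84% of all genes (median log2 fold change 0.18). Erbb3, a receptor for neuregulins, had 34, 32.9, 30.3 and 31.9 CPM in GFRA1pos and 8.18, 7.04, 9.59 and 12 CPM in GFRA1neg. Every GFRA1pos library stood above every GFRA1neg library, and the gene rose by 1.81 ± 0.23 (adjusted p = 2.99e-05). Ret, the signalling partner of GFRA1, rose by 1.41 ± 0.23 (adjusted p = 0.000284), from 148 to 393 CPM in the mean, a smaller step than the 17.1-fold of Gfra1. Tyro3, a receptor for GAS6 and protein S, fell, with 10.9, 10.1, 10.2 and 12.1 CPM in GFRA1pos and 27.8, 25.8, 30.7 and 30.4 CPM in GFRA1neg (log2 fold change -1.41 ± 0.21 SE, adjusted p = 0.000167). Met, the receptor for hepatocyte growth factor, also fell by a smaller amount (log2 fold change -0.73 ± 0.15 SE, adjusted p = 0.00227). Mertk, which shares its ligands with Tyro3, and Insr, the insulin receptor, were chosen after their values were seen. Both rose, Mertk by 2.25 ± 0.40 with 11.8 against 2.46 CPM and Insr by 1.23 ± 0.28 with 35.7 against 15.2 CPM. The count of lower kinases was 2 without GFRA1pos replicate 1, 2 or 4, and the counts were 5 higher and 1 lower without the spermatid-rich libraries, where Met no longer passed (adjusted p = 0.0571).

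Axon guidance ligands and receptors, cell-contact and secreted cues that steer migrating cells, had 7 of 67 tested members higher (10.4%) and 10 lower (14.9%). Epha2, a receptor for ephrin-A ligands, had 50.3, 59.4, 50.5 and 38.8 CPM in GFRA1pos and 3.76, 4.16, 3.58 and 0.691 CPM in GFRA1neg. The groups lay far apart (log2 fold change 4.02 ± 0.48 SE, adjusted p = 1.29e-05), with GFRA1neg replicate 4 below the other 3 libraries of its group. Plxnb2, a plexin receptor for class-4 semaphorins, rose (log2 fold change 1.46 ± 0.29 SE, adjusted p = 0.00175), and so did its potential ligand gene Sema4d, chosen after its values were seen (0.93 ± 0.19; 195 ± 27.3 CPM in GFRA1pos and 103 ± 6.1 in GFRA1neg). Rgma, a repulsive guidance molecule that is also a BMP co-receptor, was lower, with 9.23, 6.15, 8.05 and 6.76 CPM in GFRA1pos and 46.6, 39.7, 61.7 and 54.1 CPM in GFRA1neg (log2 fold change -2.74 ± 0.24 SE, adjusted p = 2.65e-07). Its highest GFRA1pos library was far below its lowest GFRA1neg library. Sema6d, a transmembrane semaphorin, fell (-0.79 ± 0.15, adjusted p = 0.00173). The count of lower members was 4 without GFRA1pos replicate 2 and 5 without GFRA1neg replicate 4 and 6 without GFRA1pos replicate 1 or 4 or GFRA1neg replicate 3, and the counts were 4 higher and 2 lower without the spermatid-rich libraries.

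The Epha2 promoter is shown because this gene had the second largest fold among named higher genes whose promoter held a searched motif. It is the 250 bases before the start in RefSeq, GRCm38.p6, chr4:141300971-141301220, + strand, with capitals marking GCGTGGG, the EGR-type motif, as read on the other strand.
Epha2: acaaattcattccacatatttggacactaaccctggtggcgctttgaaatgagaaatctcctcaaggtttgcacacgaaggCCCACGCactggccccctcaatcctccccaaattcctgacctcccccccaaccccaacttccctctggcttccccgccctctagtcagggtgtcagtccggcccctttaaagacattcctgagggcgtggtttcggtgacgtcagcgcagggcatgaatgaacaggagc
The match begins 169 bases before the start. GCGTGGG was present on either strand in 4.3% of all 32851 promoters in the table, in 6.89% of those of tested genes, in 6.44% of those of genes higher in GFRA1pos and in 10.4% of those of genes lower in GFRA1pos. The match is a description of letters in this window.

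Cadherin and junction genes, which hold neighbouring cells together, had 13 of 102 tested members higher (12.8%) and 5 lower (4.9%). Mpzl2, an immunoglobulin-like adhesion protein of epithelia, had 45.6, 66.3, 81.9 and 72.2 CPM in GFRA1pos and 1.5, 2.48, 3 and 4.64 CPM in GFRA1neg (log2 fold change 4.52 ± 0.38 SE, adjusted p = 2.01e-07). Cdh3, which encodes P-cadherin, had 58.5, 66.8, 70.7 and 55.3 CPM in GFRA1pos and 15.9, 11.1, 10.3 and 18.4 CPM in GFRA1neg (log2 fold change 2.17 ± 0.22 SE, adjusted p = 1.36e-06). Neither gene had overlapping libraries. Pcdh1, a protocadherin, was chosen after its values were seen and rose by 2.81 ± 0.44. The falls were smaller: Mpp1, a membrane-associated scaffold, had 10, 6.83, 9.06 and 12.2 CPM in GFRA1pos and 16.3, 12.1, 24.1 and 25.6 CPM in GFRA1neg, with overlapping groups, and fell (-1.03 ± 0.26, adjusted p = 0.012), and the large cadherin gene Dchs1 fell (-0.93 ± 0.30, adjusted p = 0.0421). Mpp1 did not pass without GFRA1neg replicate 4 (adjusted p = 0.0511), and Dchs1 did not pass without GFRA1pos replicate 1 or 3 or GFRA1neg replicate 1, 2, 3 or 4 (adjusted p up to 0.131), with no filter on counts (adjusted p = 0.0718) or in a fit of the 8 libraries alone (adjusted p = 0.068). Lower counts were 2 without GFRA1pos replicate 1 and 3 without GFRA1pos replicate 3 or GFRA1neg replicate 3 or 4, and the list had 9 higher and 3 lower without the spermatid-rich libraries.

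Cytokine and TNF receptors had 5 of 58 tested members higher (8.62%) and 5 lower (8.62%), with a median log2 fold change of -0.25. Ifnar2, a subunit of the type I interferon receptor, had 22.5, 23.4, 26.3 and 24.5 CPM in GFRA1pos and 8.47, 9.12, 7.74 and 9.28 CPM in GFRA1neg (log2 fold change 1.48 ± 0.33 SE, adjusted p = 0.00459). The 2 chains of the interferon-gamma receptor moved in opposite directions: Ifngr1, the ligand-binding chain, rose by 0.95 ± 0.25 (adjusted p = 0.0157) and Ifngr2, the signalling chain, fell (-0.80 ± 0.26, adjusted p = 0.0469). Cntfr, the binding chain for ciliary neurotrophic factor, had 6.48, 10.1, 11.1 and 7.68 CPM in GFRA1pos and 15.8, 17.9, 20 and 16.4 CPM in GFRA1neg and fell (log2 fold change -0.99 ± 0.28 SE, adjusted p = 0.0237). These falls were weakly held. Ifngr2 did not pass without GFRA1pos replicate 1, 2, 3 or 4 or GFRA1neg replicate 1, 3 or 4 (adjusted p up to 0.119), with RLE scaling (adjusted p = 0.0523) or with no filter on counts (adjusted p = 0.0758), and Cntfr did not pass without GFRA1pos replicate 1 or 4 or GFRA1neg replicate 3 (adjusted p up to 0.0778). The lower count was 1 without GFRA1pos replicate 4 and 2 without GFRA1neg replicate 1 or 3 and 3 without GFRA1pos replicate 1 or 3. Without the spermatid-rich libraries the list had 3 higher and 3 lower, and Ifngr1 (adjusted p = 0.0906), Ifngr2 (0.205) and Cntfr (0.164) did not pass.

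G protein-coupled receptors had 13 of 132 tested members higher (9.85%) and 9 lower (6.82%), of 338 genes in the family list, since most members were too low to test. F2rl1, a receptor switched on by trypsin-like proteases, had 58.4, 67.2, 60.1 and 42.9 CPM in GFRA1pos and 9.78, 9.2, 11.1 and 10.9 CPM in GFRA1neg (log2 fold change 2.48 ± 0.31 SE, adjusted p = 2.02e-05). F2r, the thrombin receptor of the same family, was chosen after its values were seen and rose by 2.15 ± 0.34 (13.5 against 3.02 CPM). Adgrl2, a latrophilin adhesion receptor, rose (log2 fold change 2.00 ± 0.26 SE, adjusted p = 3.06e-05), with a range of 65.2 to 71.7 CPM in GFRA1pos and 15.0 to 20.1 in GFRA1neg. Cmklr1, the receptor for the chemoattractant chemerin, had 5.41, 6.73, 5.03 and 12 CPM in GFRA1pos and 48.3, 47.2, 44.2 and 57.6 CPM in GFRA1neg (log2 fold change -2.75 ± 0.34 SE, adjusted p = 1.73e-05). GFRA1pos replicate 4 was the highest of its group for Cmklr1 and still far below the GFRA1neg libraries. Hrh1, a histamine receptor, fell (-1.91 ± 0.33, adjusted p = 0.000518). Fzd7, a Wnt receptor, and Smo, the Hedgehog signal transducer, were chosen after their values were seen. Fzd7 rose by 1.54 ± 0.38 and Smo fell (-0.75 ± 0.17). The counts were 10 higher and 4 lower without the spermatid-rich libraries, where Fzd7 (adjusted p = 0.062) and Smo (0.099) did not pass.

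A chemokine and its receptor were split between the sorted cells. Cxcl12, the chemokine that binds CXCR4, had 1.86, 0.976, 3.42 and 1.94 CPM in GFRA1pos and 40.6, 25.4, 53.6 and 50.3 CPM in GFRA1neg (log2 fold change -4.37 ± 0.42 SE, adjusted p = 1.08e-06). Its receptor gene Cxcr4, chosen after its values were seen, went the other way, with 20.9, 20, 15.3 and 16.5 CPM in GFRA1pos and 4.99, 3.6, 6.36 and 4.44 CPM in GFRA1neg (log2 fold change 1.91 ± 0.36 SE, adjusted p = 0.0011). No library of either group crossed into the range of the other for either gene. In the list of chemokines, interleukins and TNF ligands, 24 of 123 members could be tested. Of these 1 was higher and 1 lower (4.17% each), under the 7.3% and 6.84% of all genes. Cxcl12 was the 1 that fell and Tnfsf12, a TNF-family cytokine, the 1 that rose (log2 fold change 1.63 ± 0.30 SE, adjusted p = 0.00114), with 7.54, 9.66, 14.7 and 11.8 CPM in GFRA1pos and 1.98, 3.52, 3.7 and 4.93 CPM in GFRA1neg. Without the spermatid-rich libraries 5 were lower, while 2.81% of all genes were lower in that fit. Low counts were filtered anew there, so the members tested may not be the 24 above and no share is given.

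Some markers of blood vessel and immune cells were higher in GFRA1pos, while most tested members did not pass. Summed endothelial markers stood at 46.6 to 53.8 CPM in GFRA1pos and 33.5 to 43.3 in GFRA1neg, with 3 of 8 tested members (Kdr, Tek and Plvap) higher. Summed macrophage and leukocyte markers stood at 29.8 to 41.8 against 19.9 to 25.5 CPM, with 3 of 7 tested members (Mrc1, Fcer1g and Cd3e) higher. The higher shares of these lists were 37.5% and 42.9% of tested members, against 7.3% of all genes. The other members of these lists were at different levels. Emcn and Esam, of endothelium, were at 0 in all GFRA1pos libraries, and Ptprc, of leukocytes, ran from 0 to 0.302 CPM there. Flt1, a receptor for VEGF, was present at 11.2 to 17.9 CPM in GFRA1pos and 12.4 to 13.2 in GFRA1neg, and Cdh5, a vascular cadherin, at 5.66 to 9.85 and 5.68 to 9.28. Pecam1, an endothelial adhesion molecule, stood at 2.11 to 3.37 against 3.52 to 4.64 CPM, and Cd68, a macrophage lysosomal protein, at 6.33 to 9.17 against 8.24 to 11.6. None of these 4 genes passed. Sertoli cell markers summed to 167.0 to 192.4 against 91.8 to 129.8 CPM, of which Ctsl, also expressed by other cells, held 148.9 to 172.9 and 67.7 to 92.9. Gata4 and Wt1 of that list fell, with 1 without GFRA1pos replicate 1, 3 or 4 or GFRA1neg replicate 3 or 4. Sums for Leydig cell, peritubular myoid and red blood cell markers overlapped between the groups. The part of such cells in the results was not tested.

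**Figure D2:**
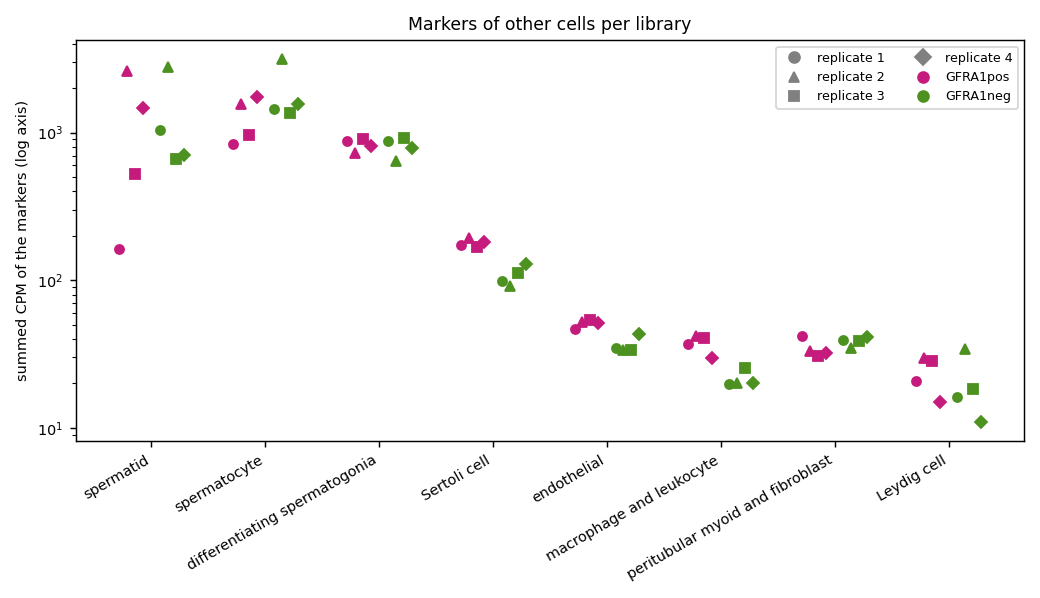
Summed CPM (log axis) of markers of other cell types in each library, GFRA1pos in magenta and GFRA1neg in green, with the symbol giving the replicate number. Spermatid sums range from 163.6 to 2788.6 CPM and overlap between groups, while endothelial, macrophage and Sertoli sums are higher in all 4 GFRA1pos libraries. The order of the Sertoli sums rests on Ctsl, at 148.9 to 172.9 CPM in GFRA1pos and 67.7 to 92.9 in GFRA1neg. Gata4 and Wt1 of that list were lower in GFRA1pos. Of the tested endothelial and macrophage markers, 3 of 8 (37.5%) and 3 of 7 (42.9%) were higher, against 7.3% of all tested genes.

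Ion channels had 17 of 181 tested members higher (9.39%) and 24 lower (13.3%), with a median log2 fold change of -0.22 against -0.04 for all genes. Chrna4, a subunit of nicotinic acetylcholine receptors, had 245, 299, 312 and 256 CPM in GFRA1pos and 42.9, 36.9, 37.9 and 45.9 CPM in GFRA1neg (log2 fold change 2.77 ± 0.18 SE, adjusted p = 2.04e-08). Tmc6, a transmembrane channel-like protein, had 21.4, 23.9, 25.2 and 15.3 CPM in GFRA1pos and 2.82, 4.08, 4.04 and 3.06 CPM in GFRA1neg (log2 fold change 2.61 ± 0.25 SE, adjusted p = 1e-06). Its partner Tmc8, chosen after its values were seen, rose by 4.47 ± 0.44, and by 5.18 without the spermatid-rich libraries. Of the voltage-gated sodium channel genes, Scn10a had 0.887, 0.683, 0.503 and 0.845 CPM in GFRA1pos and 16, 15.3, 16.4 and 26.1 CPM in GFRA1neg (log2 fold change -4.62 ± 0.44 SE, adjusted p = 9.79e-07). It was close to absent in GFRA1pos, while GFRA1neg replicate 4 was the highest library. Tmem63c, a mechanically gated channel family member, had 6.74, 9.76, 6.94 and 8.61 CPM in GFRA1pos and 62.4, 54.2, 68.9 and 70 CPM in GFRA1neg (log2 fold change -2.99 ± 0.25 SE, adjusted p = 2.01e-07). Among genes chosen after their values were seen, the potassium channel genes Kcnj15 and Kcnc2 rose by 3.03 ± 0.39 and 3.31 ± 0.58. The lower count was 14 without GFRA1pos replicate 4, and the counts were 12 higher and 9 lower without the spermatid-rich libraries.

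Solute carriers had 22 of 294 tested members higher (7.48%) and 30 lower (10.2%), the higher share close to the 7.3% of all genes and the lower one above 6.84%, and the families of ABC transporters and P-type ATPases had 8 of 73 tested members higher (11%) and 8 lower (11%). Slc38a1, a sodium-coupled transporter of glutamine and other neutral amino acids, had 52.4, 53.7, 53.8 and 52.8 CPM in GFRA1pos and 11, 10.5, 14 and 18 CPM in GFRA1neg (log2 fold change 1.99 ± 0.24 SE, adjusted p = 1.52e-05). The spread within GFRA1pos was small, at 0.68 CPM (SD, n = 4). Slc9a3r1 carries a carrier symbol but encodes a scaffold that ties transporters to the cytoskeleton, and it rose, with 72, 78.3, 83.3 and 81.2 CPM in GFRA1pos and 16.4, 19.8, 19.4 and 19.2 CPM in GFRA1neg (log2 fold change 2.07 ± 0.15 SE, adjusted p = 6.17e-08). Of members chosen with their values known, Slc23a2, a vitamin C transporter, rose by 1.18 ± 0.16 and the orphan carrier Slc35f2 by 1.32 ± 0.16. Slc6a6, the taurine transporter, and Slc44a2, a choline transporter, fell (-1.02 ± 0.21 and -0.88 ± 0.17). Slc4a11, an ion transporter of the bicarbonate family, had 14.6, 15.8, 15.7 and 14 CPM in GFRA1pos and 38.9, 29.7, 39 and 35.2 CPM in GFRA1neg (log2 fold change -1.25 ± 0.22 SE, adjusted p = 0.000654). Higher carriers numbered 14 without GFRA1pos replicate 3, lower ones 19 without GFRA1pos replicate 2 or 4, and the counts were 12 higher and 15 lower without the spermatid-rich libraries.

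Slc24a3 encodes an exchanger of sodium and potassium against calcium. It had 0.532, 0.683, 2.92 and 1.35 CPM in GFRA1pos and 10.8, 8.16, 14.6 and 11.9 CPM in GFRA1neg, with GFRA1pos replicate 3 the highest of its group, and fell (log2 fold change -3.05 ± 0.57 SE, adjusted p = 0.00113). The log2 fold change was -3.70 without that library. Its promoter is shown as that of the named lower gene with the largest fold and a searched motif (RefSeq, GRCm38.p6, chr2:145167525-145167774, + strand, the 250 bases before the start, 1 of 2 starts in the table). Capitals again mark GCGTGGG, here 18 bases before the start on the printed strand.
Slc24a3: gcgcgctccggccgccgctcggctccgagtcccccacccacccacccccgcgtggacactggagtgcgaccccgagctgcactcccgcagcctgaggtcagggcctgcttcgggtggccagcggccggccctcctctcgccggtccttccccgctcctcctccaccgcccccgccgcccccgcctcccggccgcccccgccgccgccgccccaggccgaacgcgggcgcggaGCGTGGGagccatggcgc
Of the pumps, Fxyd6, a regulator of the sodium pump, had 17.9, 22, 24.4 and 27.3 CPM in GFRA1pos and 8.09, 7.04, 6.36 and 6.22 CPM in GFRA1neg (log2 fold change 1.72 ± 0.23 SE, adjusted p = 4.98e-05). The pump subunit gene Atp1b2 rose by 0.86 ± 0.20 (adjusted p = 0.00635). Abcc4, an exporter of cyclic nucleotides and organic anions, had 45.2, 33.9, 49.7 and 43.7 CPM in GFRA1pos and 98.2, 82.8, 94.6 and 108 CPM in GFRA1neg (log2 fold change -1.15 ± 0.18 SE, adjusted p = 0.000266), and Abcd2, a peroxisomal fatty acid transporter, fell (-2.79 ± 0.45, adjusted p = 0.000274). Higher members of the ABC and P-type list numbered 4 without GFRA1pos replicate 3 and 5 without GFRA1pos replicate 2 or GFRA1neg replicate 1, and the list had 4 higher and 5 lower without the spermatid-rich libraries.

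**Figure D3:**
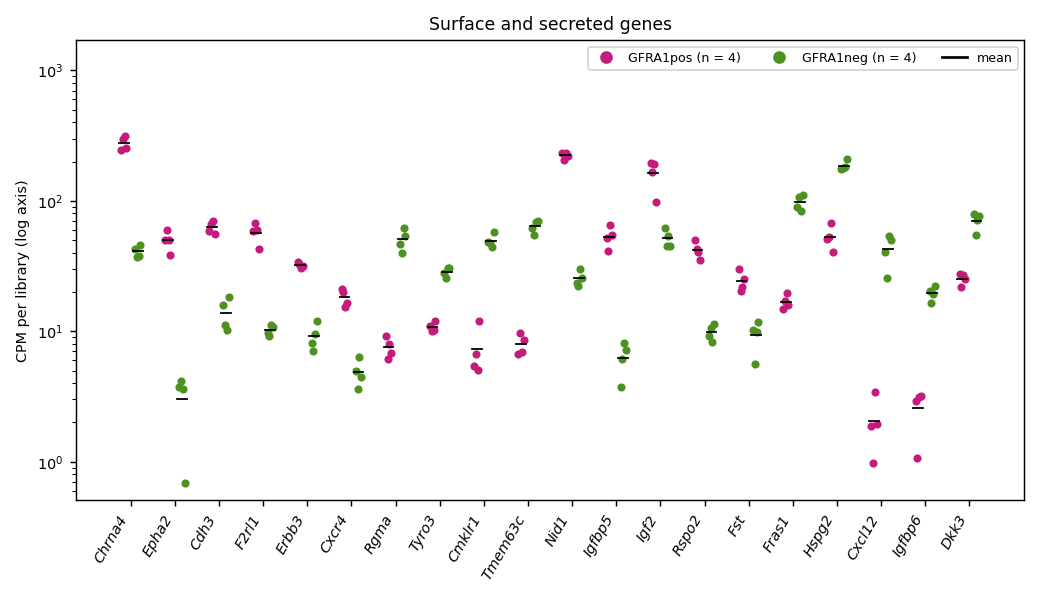
CPM per library (log axis) of 20 surface and secreted genes, GFRA1pos in magenta and GFRA1neg in green, n = 4 each, with bars at the means. The libraries of the groups do not overlap for any of the 20 genes, and Epha2 has 1 GFRA1neg library at 0.691 CPM.

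Among secreted growth factors, there were 5 of 37 tested members higher (13.5%) and 3 lower (8.11%). Pdgfb and Pdgfa, the ligands of the PDGF receptors found on mesenchymal cells, both rose. Pdgfb had 22.5, 28.5, 27.2 and 21.9 CPM in GFRA1pos and 10.6, 13.9, 10.6 and 12.1 CPM in GFRA1neg (log2 fold change 1.08 ± 0.20 SE, adjusted p = 0.00105), and Pdgfa rose by 0.94 ± 0.19 (adjusted p = 0.00232). The other called members, chosen after their values were seen, had means under 10 CPM in both groups: Hbegf, Fgf9 and Fgf12 were higher, and Vegfb, Cdnf and Vegfd lower. The lower count was 1 without GFRA1pos replicate 2 or GFRA1neg replicate 1 or 4, and the list had 3 higher and 0 lower without the spermatid-rich libraries.

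The TGF-beta and BMP pathway had 9 of 57 tested members higher (15.8%) and 7 lower (12.3%). Bmp7, a BMP ligand, had 33.9, 34.7, 32.6 and 30.6 CPM in GFRA1pos and 16, 17.1, 20 and 11.8 CPM in GFRA1neg (log2 fold change 1.02 ± 0.18 SE, adjusted p = 0.000711). Smad6, an inhibitory SMAD that blocks BMP receptors, was low in GFRA1neg, with 12.3, 8.98, 15.3 and 10.8 CPM in GFRA1pos and 0.564, 1.68, 1.73 and 1.88 CPM in GFRA1neg (log2 fold change 3.01 ± 0.55 SE, adjusted p = 0.000981). Smad3, which carries TGF-beta and activin signals, had 35.8, 47.3, 53.9 and 42.1 CPM in GFRA1pos and 79.6, 70.5, 101 and 99 CPM in GFRA1neg and fell (log2 fold change -0.96 ± 0.22 SE, adjusted p = 0.00505). Others were chosen after their values were seen. The inhibitory SMAD gene Smad7 rose by 0.99 ± 0.22, the ligand gene Tgfb1 by 1.32 ± 0.29 and the activin antagonist gene Fst by 1.38 ± 0.34. The receptor chains parted: Tgfbr2 rose by 2.07 ± 0.46, whereas Tgfbr1, named by the rule, fell (-0.71 ± 0.22, adjusted p = 0.0328). Tgfbr1 did not pass without GFRA1pos replicate 2, 3 or 4 or GFRA1neg replicate 1 or 3 (adjusted p up to 0.114), and neither receptor passed without the spermatid-rich libraries (adjusted p = 0.122 and 0.103). The lower count of the list was 1 without GFRA1neg replicate 1 and 2 without GFRA1pos replicate 2 or GFRA1neg replicate 3 and 3 without GFRA1pos replicate 1, 3 or 4 or GFRA1neg replicate 4, and the counts were 7 higher and 1 lower without the spermatid-rich libraries.

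In the Wnt pathway there were 7 of 49 tested members higher (14.3%) and 4 lower (8.16%). Fzd10, a Wnt receptor, had 10.7, 16.2, 11.4 and 12.3 CPM in GFRA1pos and 4.04, 3.6, 1.5 and 1.18 CPM in GFRA1neg (log2 fold change 2.27 ± 0.42 SE, adjusted p = 0.000956). R-spondins, secreted proteins that raise the number of Wnt receptors at the surface, parted. Rspo2 had 50.4, 42.5, 40.9 and 35.3 CPM in GFRA1pos and 9.12, 10.6, 8.32 and 11.4 CPM in GFRA1neg (log2 fold change 2.09 ± 0.42 SE, adjusted p = 0.00188), while Rspo1 and Rspo4, chosen after their values were seen, fell (-2.70 ± 0.61 and -0.92 ± 0.21). Dkk3, a secreted member of the Dickkopf family, had 27.4, 21.9, 26.9 and 25.2 CPM in GFRA1pos and 79.6, 54.4, 71.8 and 76.3 CPM in GFRA1neg (log2 fold change -1.48 ± 0.17 SE, adjusted p = 1.11e-05). Lef1, a transcription factor that acts with beta-catenin, fell (-1.36 ± 0.26, adjusted p = 0.00136), with 14.9 against 38.4 CPM. The list had 5 higher and 2 lower without the spermatid-rich libraries, where Rspo1 (adjusted p = 0.112) and Rspo4 (0.0905) did not pass.

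The insulin-like growth factor system had 5 of 22 tested members higher (22.7%) and 3 lower (13.6%) in a short list. Igf2, the growth factor, had 196, 166, 191 and 97.3 CPM in GFRA1pos and 61.6, 45.3, 53.7 and 45.2 CPM in GFRA1neg (log2 fold change 1.66 ± 0.23 SE, adjusted p = 7.27e-05). GFRA1pos replicate 4 was lower than the rest of its group and above every GFRA1neg library. The secreted binding proteins that hold these growth factors parted. Igfbp5 had 51.5, 41.2, 65.5 and 54.7 CPM in GFRA1pos and 3.76, 6.08, 8.09 and 7.21 CPM in GFRA1neg (log2 fold change 3.08 ± 0.36 SE, adjusted p = 1.25e-05), and Igfbp6, which prefers IGF2, had 2.93, 1.07, 3.12 and 3.21 CPM in GFRA1pos and 20.3, 16.5, 19.4 and 22.1 CPM in GFRA1neg (log2 fold change -2.91 ± 0.41 SE, adjusted p = 6.32e-05). Grb10, an adaptor that restrains insulin and IGF receptors, fell, with 40.1, 53.8, 35.9 and 48.7 CPM in GFRA1pos and 115, 94.1, 102 and 102 CPM in GFRA1neg (log2 fold change -1.21 ± 0.18 SE, adjusted p = 0.000102). Insr, the insulin receptor gene described above, is also in this list. Igf2 and Grb10 are both imprinted, and they moved in opposite directions. The list had 4 higher and 2 lower without the spermatid-rich libraries.

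Extracellular matrix genes had 9 of 96 tested members higher (9.38%) and 9 lower (9.38%). Nid1, a basement membrane linker, had 234, 205, 232 and 220.1 CPM in GFRA1pos and 23.3, 22.3, 30.3 and 25.8 CPM in GFRA1neg (log2 fold change 3.13 ± 0.26 SE, adjusted p = 1.96e-07). Smoc2, a matricellular protein, had 54.9, 54.4, 59.3 and 40.8 CPM in GFRA1pos and 10.1, 17.3, 16.4 and 15.1 CPM in GFRA1neg and rose (log2 fold change 1.83 ± 0.23 SE, adjusted p = 2.49e-05), and Nid2, a relative of Nid1 chosen after its values were seen, rose by 1.65 ± 0.22. Hspg2, which encodes the basement membrane heparan sulfate proteoglycan perlecan, went the other way, with 51.1, 52.7, 67.3 and 40.4 CPM in GFRA1pos and 177, 177, 182 and 208 CPM in GFRA1neg (log2 fold change -1.81 ± 0.26 SE, adjusted p = 8.44e-05). Fras1 had 14.8, 17, 19.6 and 16 CPM in GFRA1pos and 89.7, 106, 84.1 and 112 CPM in GFRA1neg (log2 fold change -2.54 ± 0.26 SE, adjusted p = 2.07e-06). FRAS1 forms a complex with FREM1 and FREM2 under epithelia, yet Frem1 and Frem2, chosen after their values were seen, rose by 2.84 ± 0.45 and 1.47 ± 0.24. Col1a1, a fibrillar collagen gene and fibroblast marker, was also chosen after its values were seen and fell (-2.28 ± 0.38). It was the 1 of 11 tested peritubular myoid and fibroblast markers that passed, and their sums overlapped at 30.9 to 42.2 CPM in GFRA1pos and 34.9 to 41.1 in GFRA1neg. The list of matrix genes had 6 higher and 5 lower without the spermatid-rich libraries.

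Heparan and chondroitin sulfate genes, which build the sugar chains that hold growth factors near cells, had 7 of 59 tested members higher (11.9%) and 5 lower (8.47%). Hs3st3b1, a heparan sulfate 3-O-sulfotransferase, had 28.3, 51.1, 41.1 and 32.2 CPM in GFRA1pos and 1.13, 1.6, 2.08 and 0.592 CPM in GFRA1neg (log2 fold change 4.82 ± 0.58 SE, adjusted p = 1.44e-05). Gpc3, a glypican core protein, rose by 2.27 ± 0.35 (adjusted p = 0.000184), and Gpc4, chosen after its values were seen, by 1.40 ± 0.28. Hs6st1, a 6-O-sulfotransferase, had 8.61, 17.3, 13 and 12.7 CPM in GFRA1pos and 23.2, 23, 30.7 and 33.3 CPM in GFRA1neg and fell (log2 fold change -1.10 ± 0.23 SE, adjusted p = 0.00286). Ndst1, which starts sulfation of the chains, fell (-0.59 ± 0.17, adjusted p = 0.0276). Ndst1 did not pass without GFRA1pos replicate 1 or 4 or GFRA1neg replicate 1 or 3 (adjusted p up to 0.108), with no filter on counts (adjusted p = 0.051) or without the spermatid-rich libraries (adjusted p = 0.186). Lower counts were 1 without GFRA1neg replicate 1 and 2 without GFRA1pos replicate 1, 2 or 3 and 3 without GFRA1neg replicate 3 or 4, and the list had 3 higher and 3 lower without the spermatid-rich libraries.

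Proteases and their inhibitors had 12 of 147 tested members higher (8.16%) and 6 lower (4.08%), near or under the 7.3% and 6.84% of all genes. Adamts17, a secreted metalloprotease, had 28.6, 26.9, 34 and 32.2 CPM in GFRA1pos and 9.22, 10.7, 9.94 and 8.59 CPM in GFRA1neg (log2 fold change 1.66 ± 0.22 SE, adjusted p = 3.69e-05). Ctsl, the lysosomal protease cathepsin L, rose by 1.02 ± 0.16 (adjusted p = 0.000164). Anpep, a surface aminopeptidase, had 12.1, 16.4, 14.8 and 9.12 CPM in GFRA1pos and 47.5, 49.3, 55 and 57.5 CPM in GFRA1neg (4-fold lower, adjusted p = 1.48e-05). Ctso, another cathepsin, fell (-1.23 ± 0.34, adjusted p = 0.0199), but not without GFRA1pos replicate 1, 2 or 4 or GFRA1neg replicate 4 (adjusted p up to 0.0796) or without the spermatid-rich libraries (adjusted p = 0.138). Higher counts were 7 without GFRA1pos replicate 3 or GFRA1neg replicate 1, lower counts 2 without GFRA1pos replicate 2 or GFRA1neg replicate 4 and 3 without GFRA1pos replicate 1, and the list had 7 higher and 2 lower without the spermatid-rich libraries.

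Metabolic genes were called about as often as all genes (13.9% against 14.1%). The pentose phosphate, glycogen and hexosamine list had 2 of 53 tested members higher (3.77%) and 6 lower (11.3%), with a median log2 fold change of -0.18. Gfpt2, the glutamine-using enzyme that commits sugar to hexosamine synthesis, had 45.9, 38.4, 37 and 33.1 CPM in GFRA1pos and 3.01, 3.76, 2.43 and 2.96 CPM in GFRA1neg (log2 fold change 3.65 ± 0.34 SE, adjusted p = 8.55e-07). Gnpnat1, a later step of the same pathway, rose by 0.53 ± 0.15 (adjusted p = 0.0239), but not without GFRA1pos replicate 2 or 3 or GFRA1neg replicate 2 or 4 (adjusted p up to 0.0784). Ogt, which uses the end product to modify proteins, was chosen after its values were seen and fell (-0.72 ± 0.14), from 210.2 to 127 CPM. Pfkfb3, which makes an activator of glycolysis, had 8.96, 8.98, 7.85 and 7.18 CPM in GFRA1pos and 22, 22.7, 24.4 and 23.4 CPM in GFRA1neg (log2 fold change -1.49 ± 0.20 SE, adjusted p = 5.28e-05), with a narrow spread in both groups. Phka1, a subunit of the kinase that switches on glycogen breakdown, fell (-1.57 ± 0.28, adjusted p = 0.000762). Higher members numbered 1 without GFRA1pos replicate 2 or 3 or GFRA1neg replicate 2 or 4, lower ones 3 without GFRA1pos replicate 1, and the list had 1 higher and 3 lower without the spermatid-rich libraries, where Gnpnat1 did not pass (adjusted p = 0.161).

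The TCA cycle and pyruvate entry list had 2 of 48 tested members higher (4.17%) and 6 lower (12.5%). Glud1, which turns glutamate into 2-oxoglutarate in mitochondria, had 183, 151, 162 and 149.5 CPM in GFRA1pos and 106, 83.2, 123 and 107 CPM in GFRA1neg (log2 fold change 0.62 ± 0.13 SE, adjusted p = 0.0026). Pdk1, the kinase that turns off pyruvate dehydrogenase, rose by 0.69 ± 0.17 (adjusted p = 0.0101). Got2, the mitochondrial aspartate aminotransferase, had 64, 53.6, 74 and 56.5 CPM in GFRA1pos and 153, 115, 181 and 172 CPM in GFRA1neg (log2 fold change -1.32 ± 0.23 SE, adjusted p = 0.000532). Glul, which joins ammonia to glutamate to make glutamine, was the sole higher member among 66 tested genes of amino acid and polyamine metabolism. That list had 1.52% higher and 6.06% lower, under the 7.3% and 6.84% of all genes. Glul had 253, 257, 281 and 258 CPM in GFRA1pos and 188, 169.9, 193 and 185 CPM in GFRA1neg (log2 fold change 0.51 ± 0.12 SE, adjusted p = 0.0088). Of the 4 lower members of that list, Kyat1, a kynurenine aminotransferase, had 7.54, 11.7, 8.05 and 8.53 CPM in GFRA1pos and 16.1, 16.7, 15.8 and 17.4 CPM in GFRA1neg and fell (-0.88 ± 0.25). Asns, asparagine synthetase, fell (-0.62 ± 0.18). Neither was firmly held: Kyat1 did not pass without GFRA1pos replicate 1, 3 or 4 or GFRA1neg replicate 4 (adjusted p up to 0.0692), Asns did not pass without GFRA1pos replicate 3 or 4 or GFRA1neg replicate 1 or 4 (adjusted p up to 0.0927), and neither passed without the spermatid-rich libraries (adjusted p = 0.0774 and 0.147). Lower TCA genes numbered 3 without GFRA1pos replicate 2 or 4, and the lists had 2 higher and 2 lower (TCA) and 1 higher and 1 lower (amino acids) without the spermatid-rich libraries. Higher amino acid genes numbered 2 without GFRA1neg replicate 4, and lower ones 0 without GFRA1pos replicate 3 or GFRA1neg replicate 4 and 1 without GFRA1pos replicate 1 or 4 or GFRA1neg replicate 1 and 2 without GFRA1neg replicate 3.

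Fatty acid and glycerolipid genes had 9 of 144 tested members higher (6.25%) and 10 lower (6.94%), near the background in both directions. Cpt1a, the gate of fatty acids into mitochondria, had 65.4, 66.4, 76.6 and 60.7 CPM in GFRA1pos and 35.5, 37.6, 38.6 and 34.8 CPM in GFRA1neg (log2 fold change 0.88 ± 0.12 SE, adjusted p = 7.33e-05). Acss1, which makes acetyl-CoA from acetate in mitochondria, had 23.2, 30, 26.3 and 17.1 CPM in GFRA1pos and 1.13, 1.76, 1.39 and 2.76 CPM in GFRA1neg (log2 fold change 3.77 ± 0.53 SE, adjusted p = 7.38e-05). Of the desaturases, Scd3 fell (-1.60 ± 0.33, adjusted p = 0.00246), whereas Scd1 and Fads1, chosen after their values were seen, rose by 1.38 ± 0.29 and 0.76 ± 0.14. Scd1 and Scd3 are close paralogs, so reads may have been split between them in counting. Acaa1b, a peroxisomal thiolase, had 5.41, 6.34, 5.64 and 5.74 CPM in GFRA1pos and 12.9, 12.5, 10.6 and 17.6 CPM in GFRA1neg and fell (-1.21 ± 0.25, adjusted p = 0.00241). Among 40 tested sterol synthesis genes, 0 rose and 3 fell (7.5%), near the 6.84% of all genes, with a small change in Cyp51, an enzyme of cholesterol synthesis (-0.42 ± 0.13). Cyp51 did not pass without GFRA1pos replicate 1, 2 or 4 or GFRA1neg replicate 1, 3 or 4 (adjusted p up to 0.14), with no filter on counts (adjusted p = 0.0807) or without the spermatid-rich libraries (adjusted p = 0.213). The sterol list had 1 without GFRA1pos replicate 2 or 4 or GFRA1neg replicate 1 or 4 and 6 without GFRA1neg replicate 2 as lower, 1 without GFRA1pos replicate 1 as higher, and 0 higher and 0 lower without the spermatid-rich libraries. Lower fatty acid genes numbered 6 without GFRA1pos replicate 3 or GFRA1neg replicate 1 or 3, and that list had 7 higher and 8 lower without the spermatid-rich libraries.

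Nucleotide synthesis and salvage had 10 of 71 tested members higher (14.1%) and 3 lower (4.22%), and the serine, folate and methionine list had 5 of 42 tested members higher (11.9%) and 4 lower (9.52%), against 7.3% and 6.84% of all genes. Rrm2, a subunit of ribonucleotide reductase, had 43.5, 52.6, 44.7 and 37.6 CPM in GFRA1pos and 12.1, 20.1, 12.6 and 7.9 CPM in GFRA1neg (log2 fold change 1.75 ± 0.21 SE, adjusted p = 1.44e-05). Tyms, which makes thymidylate with a folate donor, had 102, 86.3, 84.8 and 85.1 CPM in GFRA1pos and 46.9, 39, 45.5 and 38.9 CPM in GFRA1neg (log2 fold change 1.07 ± 0.14 SE, adjusted p = 4.23e-05), and Mthfd1, which supplies folate units in the cytosol, had 26.4, 32.3, 27.9 and 20.9 CPM in GFRA1pos and 8.84, 9.28, 11.1 and 7.6 CPM in GFRA1neg (log2 fold change 1.54 ± 0.19 SE, adjusted p = 2.18e-05). All 3 genes had separate groups of libraries. Outside the naming rule, with values already seen, Rrm1, the other reductase subunit, rose by 0.79 ± 0.11, the thymidine kinase gene Tk1 by 1.66 ± 0.26, the purine synthesis gene Paics by 0.56 ± 0.12, the mitochondrial folate enzyme gene Mthfd1l by 1.59 ± 0.24 and the serine synthesis gene Phgdh by 0.65 ± 0.16. Mat2b, a regulatory subunit for making S-adenosylmethionine, had 63.7, 76.7, 68.2 and 67.2 CPM in GFRA1pos and 105, 91.8, 129 and 137 CPM in GFRA1neg and fell (-0.74 ± 0.15, adjusted p = 0.00268), and Slc25a32, the mitochondrial folate carrier, also fell (-0.86 ± 0.23, adjusted p = 0.0179). Slc25a32 did not pass without GFRA1pos replicate 3 or GFRA1neg replicate 4 (adjusted p up to 0.0644) or without the spermatid-rich libraries (adjusted p = 0.0886). Lower serine and folate genes numbered 1 without GFRA1pos replicate 3 and 2 without GFRA1neg replicate 4, and the lists had 8 higher and 3 lower (nucleotides) and 5 higher and 2 lower (serine and folate) without the spermatid-rich libraries.

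The 3 nucleotide genes that fell were Upp1, Entpd2 and Nt5c2, all enzymes that break nucleotides or nucleosides down, Nt5c2 being chosen after its values were seen. Upp1, uridine phosphorylase, had 12.7, 15.6, 20.1 and 16.8 CPM in GFRA1pos and 82.7, 68.3, 83.4 and 106 CPM in GFRA1neg (log2 fold change -2.38 ± 0.35 SE, adjusted p = 0.000123). Entpd2, an ectoenzyme that removes phosphate from extracellular ATP, had 1.86, 1.46, 1.31 and 1.35 CPM in GFRA1pos and 11.2, 9.44, 15.5 and 13.6 CPM in GFRA1neg (log2 fold change -3.04 ± 0.37 SE, adjusted p = 1.52e-05). Its promoter is shown as that of the named lower gene with the second largest fold and a searched motif (RefSeq, GRCm38.p6, chr2:25395624-25395873, + strand, the 250 bases before the start). Capitals mark TGACTCA, the AP-1 motif, as read on the other strand, beginning 99 bases before the start.
Entpd2: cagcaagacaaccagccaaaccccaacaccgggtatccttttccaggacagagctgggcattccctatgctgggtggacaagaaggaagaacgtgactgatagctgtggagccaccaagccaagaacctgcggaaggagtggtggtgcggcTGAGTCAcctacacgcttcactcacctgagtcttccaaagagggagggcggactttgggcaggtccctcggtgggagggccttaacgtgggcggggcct
TGACTCA was present in 4.46% of all promoters, 3.3% of those of tested genes, 4.32% of those of genes higher in GFRA1pos and 2.68% of those of lower genes.

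Glutathione and antioxidant enzymes had 12 of 108 tested members higher (11.1%) and 3 lower (2.78%). Their median log2 fold change was 0.13, and their summed level was 5485 to 5857 CPM in GFRA1pos and 4983 to 5374 in GFRA1neg, without overlap. Gsta4, a glutathione transferase that clears lipid aldehydes, had 113, 118, 114 and 98.4 CPM in GFRA1pos and 44.7, 28.7, 49.2 and 38.9 CPM in GFRA1neg (log2 fold change 1.46 ± 0.19 SE, adjusted p = 4.09e-05). Aldh1a3, an aldehyde dehydrogenase that can make retinoic acid, was low in both groups, with 10.3, 12.9, 16.7 and 11.6 CPM in GFRA1pos and 0.0941, 0.32, 0.231 and 0.79 CPM in GFRA1neg (log2 fold change 5.11 ± 0.63 SE, adjusted p = 1.98e-05). The log2 fold change was 5.79 without GFRA1neg replicate 4. Chosen after their values were seen, the glutathione peroxidase gene Gpx1 rose by 1.10 ± 0.19, the thioredoxin reductase gene Txnrd1 by 1.02 ± 0.17, the haem oxygenase gene Hmox1 by 0.87 ± 0.17 and the stress-induced gene Sesn2 by 1.36 ± 0.20. The relatives of 2 of them moved the other way. Txnrd3, a reductase of the testis, had 36.5, 41.4, 41.2 and 64.9 CPM in GFRA1pos and 77, 83.2, 78.3 and 82.2 CPM in GFRA1neg (log2 fold change -0.80 ± 0.17 SE, adjusted p = 0.00269), and Sesn3 fell (-0.73 ± 0.17, adjusted p = 0.00774). The list had 9 higher and 1 lower without the spermatid-rich libraries, where Sesn3 did not pass (adjusted p = 0.062).

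Phosphoinositide and diacylglycerol enzymes, which make and remove lipid messengers, had 13 of 144 tested members higher (9.03%) and 7 lower (4.86%). Inppl1, a phosphatase that removes a phosphate from the lipid product of PI3-kinase, had 76.9, 91.5, 98.8 and 83.4 CPM in GFRA1pos and 30, 37.8, 36.7 and 27.4 CPM in GFRA1neg (log2 fold change 1.41 ± 0.17 SE, adjusted p = 1.31e-05). Dgkk, a diacylglycerol kinase, rose (log2 fold change 1.80 ± 0.27 SE, adjusted p = 0.000123), with 147.7 to 217 CPM in GFRA1pos and 41.6 to 61.9 in GFRA1neg. Among genes chosen after their values were seen, Sphk1, which makes the messenger sphingosine phosphate, rose by 1.55 ± 0.29 and Pik3c2b, a class II PI3-kinase, by 1.03 ± 0.17. Plce1, a phospholipase C, had 3.19, 1.37, 2.21 and 3.8 CPM in GFRA1pos and 14, 10.4, 14.6 and 20.2 CPM in GFRA1neg (log2 fold change -2.47 ± 0.48 SE, adjusted p = 0.00166), and Pla2g1b, a secreted phospholipase A, fell (-1.53 ± 0.31, adjusted p = 0.00222). The list had 8 higher and 4 lower without the spermatid-rich libraries.

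Homeobox transcription factors had 32 of 121 tested members higher (26.4%) and 16 lower (13.2%), against 7.3% and 6.84% of all genes. Of the higher members, 10 were Rhox2 or Rhox4 genes, near-identical copies in an X-linked cluster that the counting may not separate, and these are uncertain as single genes. Without the Rhox2 and Rhox4 copies 22 of 106 tested members were higher (20.8%) and 16 lower (15.1%), and the median log2 fold change went from 0.14 to -0.04. Lhx2, a LIM homeobox factor, had 52.9, 52.6, 48.5 and 41.5 CPM in GFRA1pos and 6.3, 6.08, 3.81 and 5.03 CPM in GFRA1neg (log2 fold change 3.19 ± 0.24 SE, adjusted p = 6.17e-08), and Barx1 had 12.3, 13.8, 16.3 and 14.9 CPM in GFRA1pos and 1.22, 1.84, 0.809 and 1.28 CPM in GFRA1neg (log2 fold change 3.44 ± 0.36 SE, adjusted p = 2.34e-06). Both were separate from GFRA1neg in every library. Of members chosen with their values known, Barhl2 rose by 3.35 ± 0.42, Lhx1 by 4.13 ± 0.53, Dlx3 by 2.91 ± 0.46 and Irx1 by 3.47 ± 0.50, all homeobox genes known from the patterning of embryonic tissues. The value for Lhx1 was 4.76 without the spermatid-rich libraries, and that for Irx1 was 4.19 without GFRA1neg replicate 4.

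Six4, a SIX-family homeobox factor, fell, with 15, 11.3, 15.4 and 9.29 CPM in GFRA1pos and 108, 92.1, 143 and 158 CPM in GFRA1neg (log2 fold change -3.29 ± 0.28 SE, adjusted p = 2.2e-07). Pou6f1, a POU factor, had 13.6, 12.9, 11.6 and 18.2 CPM in GFRA1pos and 44.2, 72.3, 43.3 and 49 CPM in GFRA1neg (log2 fold change -1.89 ± 0.24 SE, adjusted p = 2.38e-05), with GFRA1neg replicate 2 the highest library. Outside the naming rule, with values already seen, Onecut2 fell (-2.89 ± 0.39) and Hoxb3 fell (-2.37 ± 0.47). The number of lower homeobox genes was 10 without GFRA1neg replicate 1 or 4, and the list had 16 higher and 10 lower without the spermatid-rich libraries.

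The combined list of SOX, T-box, GATA, ZIC, KLF, EGR and forkhead factors had 21 of 182 tested members higher (11.5%) and 31 lower (17%). Egr2, an immediate early zinc finger factor, had 204, 202, 249.6 and 209 CPM in GFRA1pos and 10.4, 9.2, 10.5 and 13.7 CPM in GFRA1neg (log2 fold change 4.30 ± 0.23 SE, adjusted p = 1.15e-09). Each GFRA1pos library was more than 10 times each GFRA1neg library. The promoter is shown as that of the named higher gene with the largest fold and a searched motif (RefSeq, GRCm38.p6, chr10:67535249-67535498, + strand, 250 bases before 1 of 5 starts in the table). Capitals mark TTCCCGC, the E2F motif, at 199 bases and CACGTG, the E-box of MYC-type factors, at 27 bases before the start.
Egr2: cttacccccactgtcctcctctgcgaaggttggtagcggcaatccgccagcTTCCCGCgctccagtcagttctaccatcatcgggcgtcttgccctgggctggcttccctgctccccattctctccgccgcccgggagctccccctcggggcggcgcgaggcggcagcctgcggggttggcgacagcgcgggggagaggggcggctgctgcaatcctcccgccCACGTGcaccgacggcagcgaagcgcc
CACGTG was present in 6.02% of all promoters, 8.1% of those of tested genes, 7.76% of those of genes higher in GFRA1pos and 11.5% of those of lower genes. TTCCCGC was present in 3.82%, 6.47%, 6.88% and 5.88% of the same sets. Matches were counted on both strands of the 250 bases, and none of the motifs searched contains another.

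Eomes, a T-box factor, had 27.1, 29.3, 27.9 and 24.4 CPM in GFRA1pos and 1.41, 1.28, 1.5 and 1.78 CPM in GFRA1neg (log2 fold change 4.18 ± 0.39 SE, adjusted p = 7.07e-07). Chosen after their values were seen, the SP-family gene Sp6 rose by 3.62 ± 0.34, the forkhead genes Foxc2 and Foxo6 by 3.71 ± 0.40 and 2.27 ± 0.22, and the DM-domain gene Dmrt3 by 1.87 ± 0.26. Sall1, a zinc finger repressor, had 36.5, 28, 36 and 27 CPM in GFRA1pos and 104, 86.4, 118 and 134 CPM in GFRA1neg (log2 fold change -1.79 ± 0.23 SE, adjusted p = 2.69e-05), and Sox10, a SOX factor of neural crest, had 3.99, 4.1, 6.04 and 3.88 CPM in GFRA1pos and 17.6, 15.1, 20.6 and 20.1 CPM in GFRA1neg (log2 fold change -2.02 ± 0.28 SE, adjusted p = 6.56e-05). Sox3, which is known from undifferentiated spermatogonia, and Tbx20, a T-box factor of the heart, were chosen after their values were seen and fell (-1.80 ± 0.34 and -2.71 ± 0.44). The list had 18 higher and 18 lower without the spermatid-rich libraries.

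Basic helix-loop-helix and leucine zipper factors had 10 of 102 tested members higher (9.8%) and 9 lower (8.82%). Hlf, a PAR-domain leucine zipper factor, had 81, 79, 73.4 and 59 CPM in GFRA1pos and 12.8, 17.8, 16.1 and 16 CPM in GFRA1neg (log2 fold change 2.22 ± 0.18 SE, adjusted p = 1.78e-07). Bhlhe41, a repressor linked to the circadian clock, had 84.3, 88, 109 and 99.8 CPM in GFRA1pos and 24.1, 32.3, 25.6 and 30.3 CPM in GFRA1neg (log2 fold change 1.76 ± 0.15 SE, adjusted p = 2.01e-07). Id4, an inhibitor of helix-loop-helix factors used as a marker of spermatogonial stem cells, was chosen after its values were seen and rose by 1.39 ± 0.29. Mycl, a MYC family member, fell (log2 fold change -1.57 ± 0.23 SE, adjusted p = 0.000131), and so did Mycn (-1.06 ± 0.18) and Sohlh1, described above among markers of differentiating spermatogonia that went both ways. Mycn was chosen after its values were seen. With the markers Etv5 and Neurog3 at the ends of their lists, ETS, STAT, IRF, NF-kB and NFAT factors had 5 of 56 tested members higher (8.93%) and 6 lower (10.7%). Nfatc2, a calcium-regulated factor, had 47.1, 54.8, 58.3 and 37.2 CPM in GFRA1pos and 8.65, 13.8, 9.82 and 13.5 CPM in GFRA1neg (log2 fold change 2.10 ± 0.23 SE, adjusted p = 5.31e-06). Fli1, an ETS factor, had 1.33, 1.76, 0.805 and 1.01 CPM in GFRA1pos and 11.7, 9.6, 19.1 and 16.4 CPM in GFRA1neg (log2 fold change -3.52 ± 0.43 SE, adjusted p = 1.89e-05), and Elf1 fell (-1.51 ± 0.24, adjusted p = 0.000287). Among genes chosen after their values were seen, Etv4, a close relative of Etv5, rose by 2.36 ± 0.41, whereas Erg, a close relative of Fli1, fell (-0.97 ± 0.20). Higher ETS-list members numbered 3 without GFRA1pos replicate 3 or GFRA1neg replicate 3 or 4, and the counts were 8 higher and 5 lower (helix-loop-helix and zipper) and 5 higher and 3 lower (ETS and others) without the spermatid-rich libraries.

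Nuclear receptors and their coactivators had 3 of 46 tested members higher (6.52%) and 6 lower (13%), with a median log2 fold change of -0.27. After Rarg, Nr2e1, an orphan receptor of neural stem cells, fell, with 6.39, 3.03, 7.35 and 2.03 CPM in GFRA1pos and 38.8, 25.8, 38.4 and 51.2 CPM in GFRA1neg (log2 fold change -3.04 ± 0.38 SE, adjusted p = 2.24e-05). Ncoa3 had 185, 154, 159 and 127 CPM in GFRA1pos and 112, 96.1, 94.9 and 102 CPM in GFRA1neg. The coactivator genes Ncoa3 and Ncoa6 rose slightly, by 0.62 ± 0.14 (adjusted p = 0.00471) and 0.49 ± 0.13 (adjusted p = 0.0194), while Ncoa1, chosen after its values were seen, fell (-1.62 ± 0.22). The oestrogen receptor gene Esr1, also chosen after its values were seen, fell (-3.41 ± 0.71). Esr1 had 13.9 CPM in GFRA1neg and 1.29 in GFRA1pos. Ncoa6 did not pass without GFRA1pos replicate 1 or GFRA1neg replicate 1 (adjusted p up to 0.0598). Higher members numbered 1 without GFRA1neg replicate 1, and the list had 2 higher and 5 lower without the spermatid-rich libraries.

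RNA-binding and translational regulators had 17 of 207 tested members higher (8.21%) and 31 lower (15%). Esrp1, an epithelial splicing regulator, had 327, 266, 349.9 and 299.8 CPM in GFRA1pos and 94.2, 89.9, 102 and 90.4 CPM in GFRA1neg (log2 fold change 1.72 ± 0.13 SE, adjusted p = 5.74e-08). Elavl2, which binds AU-rich RNA, rose by 1.01 ± 0.16 (adjusted p = 0.000254). Mbnl2, a muscleblind splicing regulator, had 49.5, 47, 39 and 31.8 CPM in GFRA1pos and 121, 94, 116 and 149 CPM in GFRA1neg (log2 fold change -1.52 ± 0.21 SE, adjusted p = 6.68e-05). Lin28a, which blocks maturation of let-7 microRNAs, had 314, 281, 357 and 266 CPM in GFRA1pos and 698, 514, 717 and 822 CPM in GFRA1neg (log2 fold change -1.18 ± 0.15 SE, adjusted p = 2.27e-05). Of the microRNA processing enzymes, chosen after their values were seen, Drosha rose by 0.58 ± 0.12 and Dicer1 fell (-0.76 ± 0.15). Zfp36, an mRNA decay factor, rose by 1.27 ± 0.21, and Stau1, an RNA transport protein, and Rc3h1, another decay factor, fell (-0.82 ± 0.14 and -0.65 ± 0.14), all chosen in the same way. The lower count was 19 without GFRA1neg replicate 1 and 20 without GFRA1pos replicate 2. The list had 14 higher and 12 lower without the spermatid-rich libraries, where Rc3h1 did not pass (adjusted p = 0.0547).

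Regulators of small GTPases and heterotrimeric G proteins had 37 of 180 tested members higher (20.6%) and 11 lower (6.11%). Arhgap26, which turns off small GTPases at focal adhesions, had 176, 179.5, 169 and 146 CPM in GFRA1pos and 36.2, 44.9, 38.1 and 34.9 CPM in GFRA1neg (log2 fold change 2.12 ± 0.18 SE, adjusted p = 2.63e-07). Rasgrp2, a calcium-regulated exchange factor for RAP1, had 26.1, 21.7, 25.9 and 21.9 CPM in GFRA1pos and 3.39, 3.28, 2.77 and 5.13 CPM in GFRA1neg (log2 fold change 2.71 ± 0.26 SE, adjusted p = 9.79e-07). The groups were separate in every library for both. Of members chosen with their values known, the small GTPase gene Rhob rose by 1.83 ± 0.18, the GTPase activator gene Arhgap31 by 2.72 ± 0.26 and the RAS-like gene Rasl11a by 3.45 ± 0.37. Rin2, a RAB5 exchange factor of endocytosis, had 19.5, 9.27, 21.4 and 14.5 CPM in GFRA1pos and 102, 74, 111 and 135 CPM in GFRA1neg (log2 fold change -2.70 ± 0.31 SE, adjusted p = 1.06e-05), and Arhgef3, a GTPase exchange factor, fell (-1.57 ± 0.19, adjusted p = 1.88e-05). The lower count was 7 without GFRA1pos replicate 4, and the list had 22 higher and 5 lower without the spermatid-rich libraries.

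Tyrosine phosphatases and receptor adaptors had 28 of 125 tested members higher (22.4%) and 9 lower (7.2%). Dusp6, a phosphatase induced by ERK that turns ERK off, had 126, 112, 133 and 114 CPM in GFRA1pos and 7.43, 9.52, 13.1 and 9.28 CPM in GFRA1neg (log2 fold change 3.63 ± 0.30 SE, adjusted p = 2.01e-07). Ptpn13, a large phosphatase with PDZ domains, had 216, 199, 232 and 211 CPM in GFRA1pos and 27.2, 34.8, 36.7 and 41.3 CPM in GFRA1neg (log2 fold change 2.62 ± 0.26 SE, adjusted p = 1.47e-06). Fyn, a SRC-family kinase, and Socs3, a brake on cytokine receptors, were chosen after their values were seen and rose by 1.30 ± 0.16 and 1.93 ± 0.28. Besides Grb10, Cblb, a ubiquitin ligase that removes receptors, fell (log2 fold change -0.68 ± 0.16 SE, adjusted p = 0.00741). Cyclic nucleotide signalling had 6 of 82 tested members higher (7.32%) and 4 lower (4.88%), near the background. Gnas, the G protein subunit that activates adenylyl cyclase, had 91.8, 99.7, 109 and 78.4 CPM in GFRA1pos and 53.3, 47, 56.6 and 57.6 CPM in GFRA1neg (log2 fold change 0.82 ± 0.20 SE, adjusted p = 0.0103). Gnao1, an inhibitory G protein subunit, had 17.5, 16.3, 21.4 and 14.9 CPM in GFRA1pos and 32.1, 57.1, 38.5 and 46.7 CPM in GFRA1neg (log2 fold change -1.32 ± 0.26 SE, adjusted p = 0.00194), and Pde3b, which breaks down cyclic AMP, fell (-0.81 ± 0.18, adjusted p = 0.00379). Adcy9, an adenylyl cyclase, rose by 0.56 ± 0.18 (adjusted p = 0.0413), but not without GFRA1pos replicate 1, 2 or 3 or GFRA1neg replicate 1, 2, 3 or 4 (adjusted p up to 0.136). Lower phosphatases and adaptors numbered 4 without GFRA1pos replicate 2 and 5 without GFRA1pos replicate 3 or 4, and higher cyclic nucleotide genes 2 without GFRA1pos replicate 2 or GFRA1neg replicate 1 and 3 without GFRA1pos replicate 1 or 3 or GFRA1neg replicate 2 or 3. Without the spermatid-rich libraries the counts were 19 higher and 1 lower (phosphatases and adaptors) and 2 higher and 1 lower (cyclic nucleotides), and Cblb (adjusted p = 0.11), Gnao1 (0.101), Pde3b (0.0953) and Adcy9 (0.0532) did not pass.

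**Figure D4:**
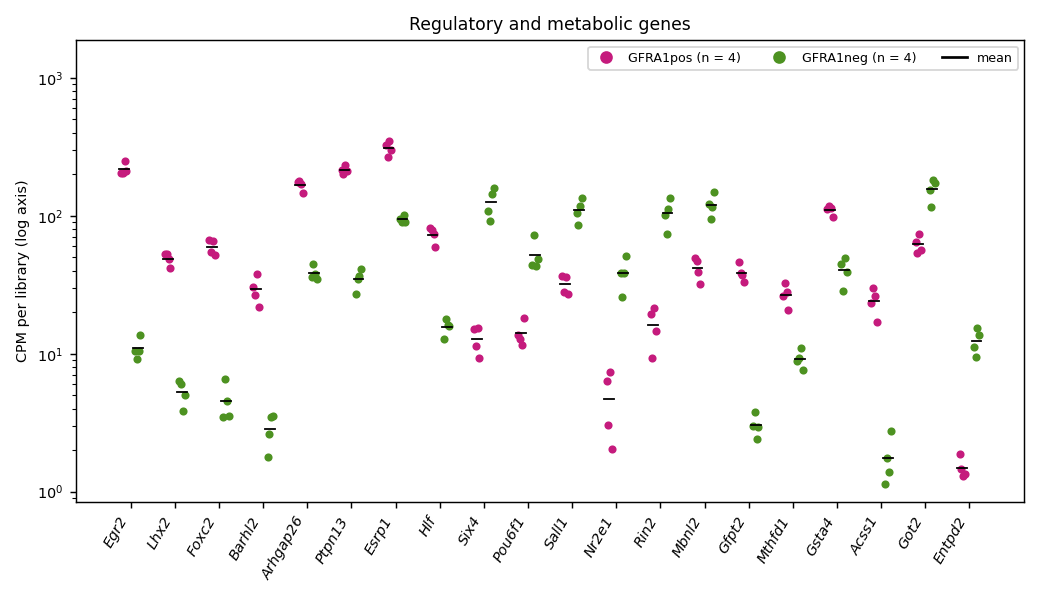
CPM per library (log axis) of 14 regulatory and 6 metabolic genes, GFRA1pos in magenta and GFRA1neg in green, n = 4 each, with bars at the means. No gene shown has overlapping groups, and Egr2 stands at 202 to 249.6 CPM against 9.2 to 13.7.

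Levels in the other sorted groups are given as a description without tests. Chrna4 had 9.23 ± 3 CPM in KITpos and 108 ± 12.9 in P6gonocyte (SD, n = 5 and n = 4), so it stood highest in GFRA1pos, then P6gonocyte, GFRA1neg and KITpos. Nid1 followed the same order, with 9.55 ± 4.3 CPM in KITpos and 59.5 ± 10 in P6gonocyte. Egr2 and Ptpn13 had KITpos means of 3.5 and 12.2 CPM and P6gonocyte means of 70.5 and 100.3. Lhx2 departed from this order, with 14.7 ± 4.5 CPM in KITpos and 14.2 ± 1.3 in P6gonocyte, which overlap in range, and a GFRA1neg mean of 5.31 CPM below both. Igfbp5 had its highest mean in GFRA1pos, with 1.69 ± 1.2 CPM in KITpos and 6.82 ± 1.1 in P6gonocyte against 53.2 in GFRA1pos.

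Several genes that were higher in GFRA1neg than in GFRA1pos had low means in KITpos. Six4 had 1.45 ± 0.83 CPM in KITpos and 52.9 ± 15.7 in P6gonocyte, Tmem63c had 1.86 ± 0.65 CPM in KITpos and 6.32 ± 1.7 in P6gonocyte and Nr2e1 had 0.512 ± 0.29 CPM in KITpos and 2.68 ± 0.93 in P6gonocyte, against GFRA1neg means of 125, 63.9 and 38.5 CPM. Rgma, Rin2 and Cmklr1 likewise had KITpos means of 7.49, 2.13 and 4.08 CPM, below their GFRA1neg means of 50.5, 105 and 49.3. Cxcl12 had 1.6 ± 0.94 CPM in KITpos and 22.3 ± 6.9 in P6gonocyte, with the P6gonocyte mean between GFRA1pos at 2.05 and GFRA1neg at 42.5 CPM. Hspg2 had 80.8 ± 39.8 CPM in KITpos and 46.5 ± 5.9 in P6gonocyte, so that its KITpos mean stood above that of GFRA1pos, with a wide spread. The KITpos mean was also above that of GFRA1pos for Rarg (11.08 against 8.556 CPM), Tyro3 (19.33 against 10.8) and Entpd2 (4.185 against 1.497). Grb10 had its highest mean in KITpos, with 138 ± 28.9 CPM in KITpos and 57.9 ± 12.9 in P6gonocyte.

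**Figure D5:**
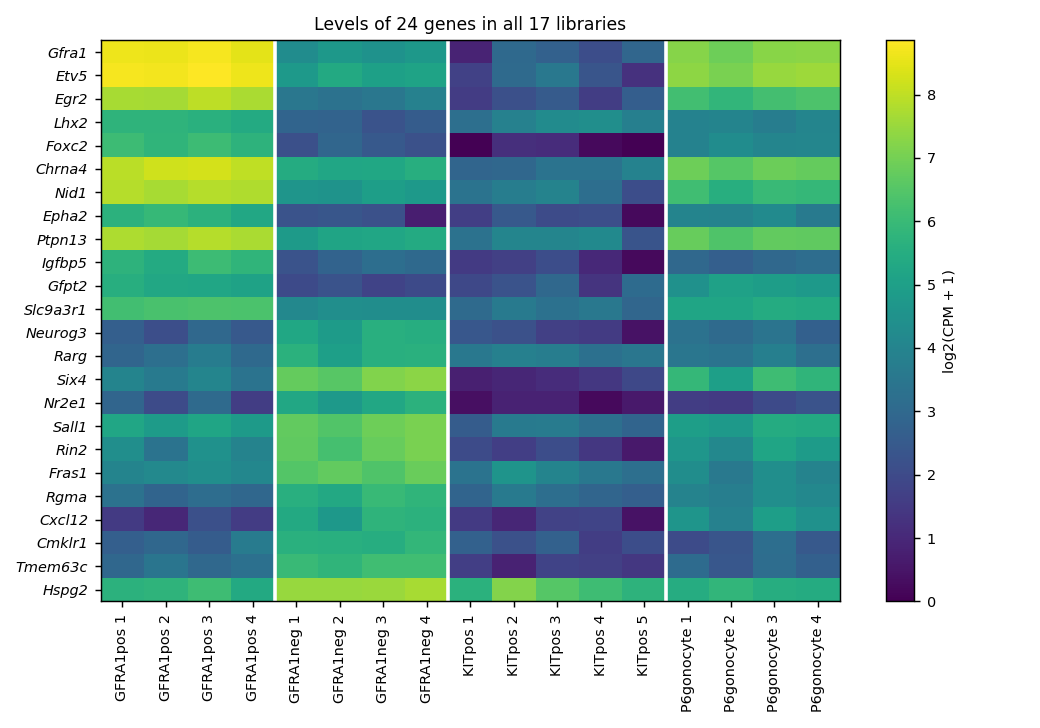
Levels of 24 genes as log2(CPM + 1) in the 4 GFRA1pos, 4 GFRA1neg, 5 KITpos and 4 P6gonocyte libraries, from dark (low) to yellow (high), with white lines between groups. The upper 12 genes are brightest in GFRA1pos and the lower 12 in GFRA1neg, and KITpos is dark for most of both sets.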

How the data were processed

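RNA of sorted cells was amplified with NuGEN Ovation V2 and sequenced from TruSeq libraries, per the labels' protocols. The authors deposited raw read counts per Entrez gene (24013 genes, of which 23930 matched a symbol in RefSeq GRCm38.p6 and 1179 had counts identical to another gene). The submitters' processing notes name Trim Galore, TopHat2 2.0.4, Bowtie2 2.0.0-6, Bowtie, DESeq, DESeq2 and mm9, without roles. Which program counted the reads, and whether by strand, is not stated there or in the labels, so antisense and overlapping partners cannot be told apart. A gene without a symbol took 23.3% to 29.9% of the counts in the 8 libraries. The first GFRA1pos column is spelled GFP in the table header and was taken as that replicate, the sole column left for it.

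Counts were fitted with edgeR 4.0.16 (R 4.3.3; filterByExpr by group, TMM scaling, glmQLFit and glmQLFTest) over all 17 libraries with 1 mean per group, and Benjamini-Hochberg adjusted p-values under 0.05 were called. CPM uses TMM-scaled library sizes. All log2 fold changes are GFRA1pos minus GFRA1neg. DESeq2 1.42.0, limma 3.58.1, other scalings and filters, a fit of the 8 libraries alone and leaving out each library were alternatives. Figures were drawn with matplotlib 3.10.9.

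Members and lists were chosen with earlier results of these data known. Named genes are the sort genes Gfra1, Kit and Tert, the markers Etv5, Neurog3 and Rarg, and, per list, up to 2 higher and 2 lower genes with the smallest adjusted p among called genes whose mean reached 10 CPM in 1 group. Values in every library are given for the first in each direction and for some others. Promoters were matched by Entrez gene number to RefSeq GRCm38.p6 (99 of 130 genes named by the rule). They were printed for at most 4 genes, the 2 largest folds in each direction with a match to 1 of 6 motifs (ETS, AP-1, EGR, MYC-type E-box, E2F and NEUROG-type E-box). Other genes were chosen after their values were seen. Some genes that the rule picks are not reported here. No other coordinates are given, since the files' build is mm9.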

Additional observations from a re-analysis of the deposited data

Results flagged for a closer look

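In 26 of 446 groups of 4 libraries examined, 1 library stood apart from the other 3 by a gap that passed Dixon's 95% critical value for 4 samples. Chance marks about 1 in 20 such groups. GFRA1neg replicate 2 was the library concerned in 7 groups and GFRA1neg replicate 4 in 5, GFRA1pos replicate 3 in 4, GFRA1neg replicate 1 and GFRA1pos replicate 2 in 3 each, GFRA1pos replicate 1 in 2, and GFRA1neg replicate 3 and GFRA1pos replicate 4 in 1 each. All values are CPM, and the range of the other 3 libraries of the same group follows each. GFRA1neg replicate 2 was high for Plxnb2 (22.4 against 9.47 to 10.5), Dchs1 (17.5 against 11.2 to 11.8), Pde3b (43.7 against 33.4 to 34.2) and summed spermatocyte markers (3174 against 1354 to 1572) and was low for Rarg (31.3 against 47.1 to 49.3), Dnmt3b (134 against 181 to 189) and Sphk1 (12.6 against 17.1 to 17.5). GFRA1pos replicate 1 was high for Tyms (102 against 84.8 to 86.3) and was low for Ifngr1 (26.3 against 29.4 to 30). GFRA1neg replicate 1 was high for Ifngr1 (17.9 against 13.4 to 14.1) and was low for Slc9a3r1 (16.4 against 19.2 to 19.8) and Smad6 (0.564 against 1.68 to 1.88). GFRA1neg replicate 4 was high for Scn10a (26.1 against 15.3 to 16.4), Hspg2 (208 against 177 to 182), Irx1 (3.36 against 0.72 to 1.04) and summed endothelial markers (43.3 against 33.5 to 34.6) and was low for Epha2 (0.691 against 3.58 to 4.16). GFRA1pos replicate 2 was low for Igfbp6 (1.07 against 2.93 to 3.21), Insr (31.3 against 36.7 to 37.6) and F2r (9.66 against 14.3 to 15). GFRA1pos replicate 3 was high for Egr2 (249.6 against 202 to 209), Sox10 (6.04 against 3.88 to 4.1), Smo (36.1 against 27.7 to 28.6) and Smad7 (32.2 against 20.9 to 22.7). GFRA1neg replicate 3 was high for summed macrophage and leukocyte markers (25.5 against 19.9 to 20.2). GFRA1pos replicate 4 was low for Arhgap31 (40.03 against 47.2 to 48.7).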

How the results depend on the processing

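Counts of called genes moved with the processing. Genes lower in GFRA1pos numbered 1057 and rose to 1802 with limma voom and sample quality weights. Testing against a 1.5-fold change with glmTreat left 382 higher and 238 lower genes. Leaving out the 3 libraries high in spermatid transcripts, chosen after seeing the data, gave 721 higher genes, 702 of them shared with the 1128, and 448 lower genes, 378 of them shared with the 1057. Leaving out 1 library at a time gave 839 to 1134 higher and 705 to 1039 lower genes. A replicate block in a fit of the 8 libraries alone gave 1622 higher and 1676 lower genes, and the same fit without the block 1420 and 1367. Deviations of same-numbered libraries correlated at 0.51, 0.60, 0.44 and 0.0045, and GFRA1pos replicates 1 and 4 correlated best with GFRA1neg replicates 3 and 2 (0.52 and 0.64), so the numbers were not taken as pairs. Of the calls, 51.62% were higher genes, and over the alternatives from 47.66% (without GFRA1neg replicate 2) to 61.68% (without the 3 libraries), with 60.36% without a filter on counts. Over 214 genes examined singly and 20 alternatives, 4122 of 4280 values kept their direction and side of the threshold, 153 lost the call, 5 gained it and 0 changed sign. Of the 214 genes, 146 kept it under every alternative run. In the main fit 211 of them were called, and most were picked by small adjusted p or after their values were seen. Their stability therefore does not speak for calls in general. Depth limits genes near 1 CPM, where about 10 counts stand behind a value. The libraries were amplified without molecular identifiers, so counts are not independent molecules.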

Other observations

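Surface antigens with a Cd number, a set formed after the values were seen, had 10 of 38 tested members higher and 4 lower in GFRA1pos, 36.8% called against 14.1% of all genes. Cd93, a receptor of endothelial and myeloid cells, had 57.7, 67.4, 65.8 and 53.8 CPM in GFRA1pos and 2.92, 4.32, 5.89 and 2.67 CPM in GFRA1neg (log2 fold change 3.96 ± 0.45 SE, adjusted p = 7.66e-06). Cd109, an anchored protein that binds TGF-beta receptors, had 16.1, 18.2, 19 and 20.8 CPM in GFRA1pos and 1.03, 2.48, 0.693 and 1.58 CPM in GFRA1neg (log2 fold change 3.65 ± 0.52 SE, adjusted p = 7.86e-05). Cd82, a tetraspanin, had 12.9, 13.9, 10.8 and 9.21 CPM in GFRA1pos and 2.73, 1.84, 2.54 and 1.38 CPM in GFRA1neg (log2 fold change 2.46 ± 0.34 SE, adjusted p = 6.32e-05). In each of the 3 genes every GFRA1pos library was above every GFRA1neg library. Cd34, a sialomucin of stem and endothelial cells, went the other way, with 1.33, 2.73, 5.03 and 1.69 CPM in GFRA1pos and 22.2, 16.6, 18.3 and 20.6 CPM in GFRA1neg (log2 fold change -2.85 ± 0.48 SE, adjusted p = 0.000387). Cd55, which protects cells from complement, fell (-1.92 ± 0.32) and Cd274, an immune checkpoint ligand, fell (-1.32 ± 0.19). The endothelial and macrophage marker sums were higher in GFRA1pos, as was Cd93 and unlike Cd34. Of the tested members of those lists 3 of 8 (37.5%) and 3 of 7 (42.9%) passed as higher, against 7.3% of all genes. The part of such cells was not tested.

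Long non-coding RNAs, a class formed after the values were seen, had 22 of 720 tested members higher and 19 lower, 5.69% called against 14.1% of all genes. The class was not matched to all genes by level, so its share cannot be read as a smaller difference between the groups. A230070E04Rik had 12.6, 22.9, 16.2 and 16.3 CPM in GFRA1pos and 0.282, 1.04, 0.924 and 0.79 CPM in GFRA1neg (log2 fold change 4.46 ± 0.43 SE, adjusted p = 9.79e-07), and Gm10007 rose by 3.82 ± 0.40. Crnde fell (-1.72 ± 0.39) and did not pass without the spermatid-rich libraries (adjusted p = 0.0977). Without strand, reads of such genes and of overlapping partners cannot be told apart. Ephb1, an ephrin-B receptor chosen after its values were seen, had 16.6, 27.5, 21.7 and 17.1 CPM in GFRA1pos and 3.76, 7.04, 11.2 and 8.59 CPM in GFRA1neg (log2 fold change 1.44 ± 0.35 SE, adjusted p = 0.00877) and did not pass without the spermatid-rich libraries (adjusted p = 0.0807). Xist, the RNA that silences an X chromosome, had 6.21, 3.81, 7.04 and 9.71 CPM in GFRA1pos and 22.6, 14.7, 27.7 and 27.3 CPM in GFRA1neg. The libraries did not overlap, and the gene did not pass (log2 fold change -1.78 ± 0.63 SE, adjusted p = 0.0694). It passed as lower in GFRA1pos with limma voom (adjusted p = 0.013), limma voom with sample quality weights (0.00543), and edgeR on the 8 libraries alone without (0.00299) and with (0.000285) a replicate block.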
